A study of Mus musculus with 3 samples.

Results

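Keratins are the structural proteins of the intermediate filaments of epithelial cells, and 39 of their genes were followed here between late carcinomas and adenomas of the mouse mammary gland. Members were all genes whose symbol in the platform annotation is Krt followed by a number and at most 1 letter, which leaves out the hair keratin-associated Krtap genes. They made up 39 of 15055 named genes, and they were read by 50 probes. Each lesion grew from a single hyperplasia taken at puberty from a donor of the cross MMTV-PyMT x B-actin-GFP and set into a syngeneic host. Late carcinomas were outgrowths of 18 weeks and adenomas were outgrowths of 5 weeks, and both carried the same transgenes. In the donors the polyoma middle T oncogene is driven by the MMTV promoter, which is active mainly in mammary epithelium, while the GFP transgene is named for a beta-actin promoter. The labels name no host strain and do not say how many lesions or animals went into an RNA sample. Total RNA of a late carcinoma (Cy3) and of an adenoma (Cy5) was hybridised together on each of 3 arrays, with no dye swap. Dye and stage thus go together on every array, and a dye effect on a probe cannot be told apart from a difference between stages.

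Every value below is a log2 ratio of adenoma over late carcinoma, so a value below 0 is likely higher in late carcinomas and a value above 0 likely higher in adenomas. Neither the log base nor the numerator is given. This reading rests on the dyes in the labels and the usual convention, and the opposite ratio would turn all directions. Nothing in the labels ties the arrays to separate animals, and the p-values therefore cover the spread among these 3 arrays alone, which may be technical. A ratio gives no level of a transcript, so it could not be checked here that each keratin, or any marker of mammary epithelium, was above background in these lesions. In whole lesions, a change in the share of cells of a type and a change in RNA per cell cannot be told apart.

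Keratin filaments are built from pairs, each of a type I and a type II protein. In mouse the type I genes lie in a cluster on chromosome 11 and the type II genes on chromosome 15, where the type I gene Krt18 sits beside its partner Krt8. In the mammary gland, luminal cells are known for Krt8, Krt18 and Krt19, and basal myoepithelial cells for Krt5, Krt14 and Krt17. Other keratins belong to the upper epidermis, to the hair shaft and to the sheath around the hair root.

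Few keratins differed between the stages beyond the spread of the arrays, and those that did lay mostly on the late carcinoma side. In limma, with p-values adjusted by Benjamini-Hochberg over all genes and probes, 4 of 39 keratins passed an adjusted p of 0.05 below 0 and 1 passed above 0. Krt1, Krt19, Krt2 and Krt90 passed below 0, and Krt10 passed above 0. Over the 31058 genes and probes tested, 9.21% passed below 0 and 15.9% above 0, or 25.1% in all. The share of keratins past the threshold was 10.3% below 0 and 2.56% above 0, so the count below 0 was near that background. Without array 3, none of the 39 passed in limma (6 had an unadjusted p under 0.05), and across all genes and probes 1 passed (25% had an unadjusted p under 0.05).

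The size of most keratin ratios was small, and their sign leaned to the late carcinoma side. The mean log2 ratio was below 0 for 32 of 39 keratins, or 82.1%, against 53.4% of named genes. Their median was -0.21, against -0.027 for named genes. By array, the keratin medians were -0.19, -0.16 and -0.22. The ratio was below 0 on all 3 arrays for 16 keratins, or 41%, against 32.1% of named genes. It was above 0 on all 3 arrays for 4 keratins, against 31.1% of named genes. Over the 39 keratins, Pearson's r of array 2 was 0.54 with array 1 and 0.70 with array 3, and r of array 1 with array 3 was 0.52; these describe genes that share an array and carry no p.

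**Figure D1:**
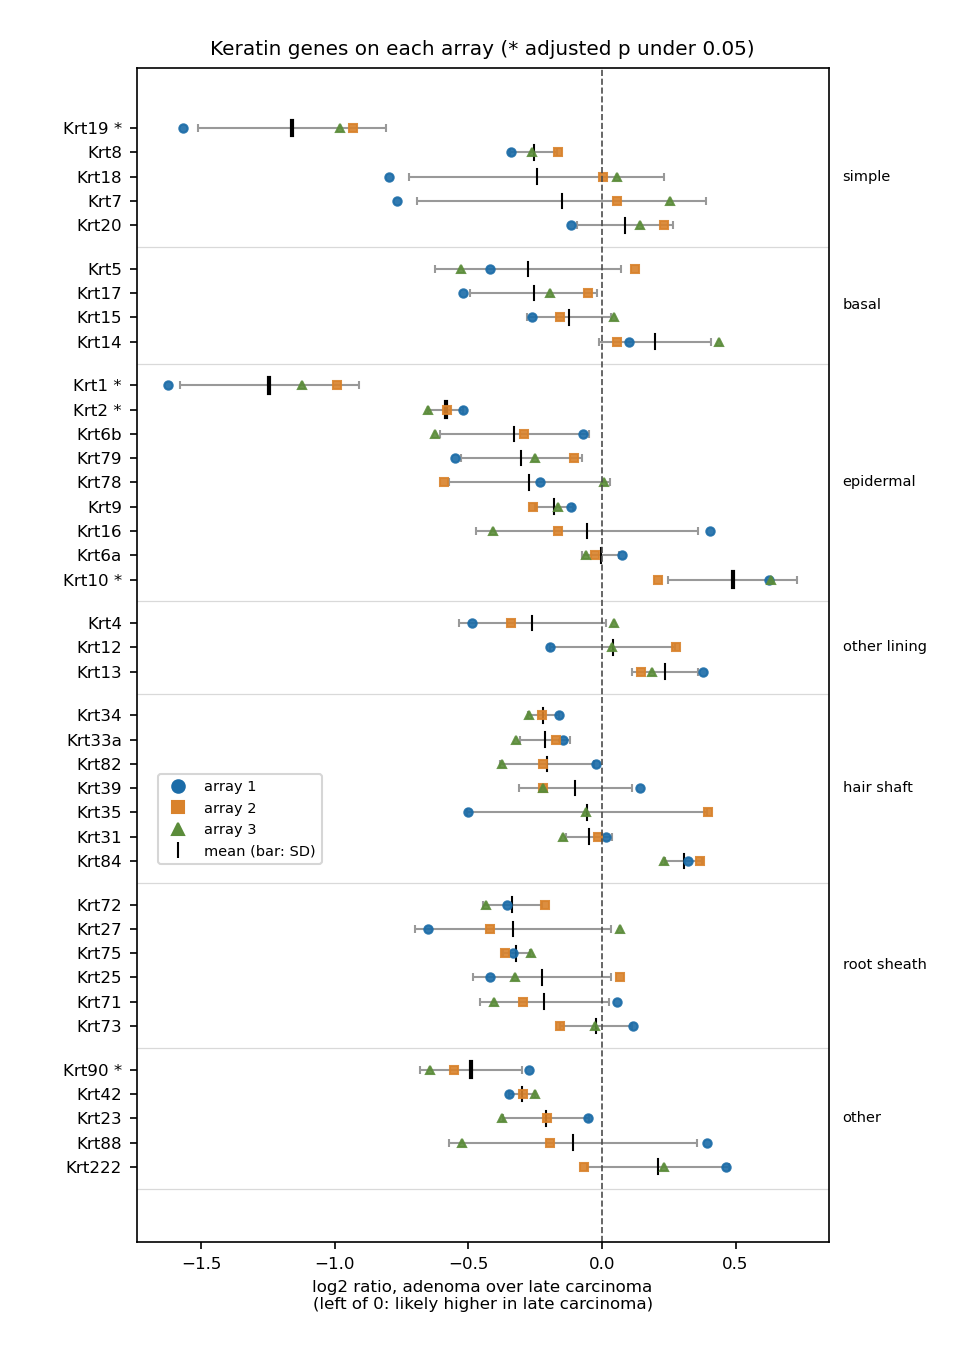
Log2 ratio of adenoma over late carcinoma (x axis) for each of the 39 keratins (rows), grouped by class, with 1 point per array, a tick at the mean and a bar for the SD (n = 3). Krt19 and Krt1 lie apart from the rest on the left, on all 3 arrays, and Krt10 has the highest mean, though not the highest value on array 2.

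A second background came from the receptors of smell, 979 olfactory and vomeronasal genes of sensory neurons. Of these, 2.66% passed below 0 and 43.5% above 0, and their median log2 ratio was 0.34. No receptor gene had a mean as low as that of Krt1 or Krt19, whereas 391 of 979 had a mean above that of Krt10. Centring each array on the receptor genes lowered the median of all genes and probes to -0.37, from -0.019 as deposited. On that scale 29 keratins passed below 0 and 0 above 0 in limma, while 54.3% of all genes and probes passed below 0 and 7.33% above 0, so the count of keratins depends on which genes are taken as unchanged.

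Among the simple epithelial keratins, Krt19 stood apart from the other members. Krt19 encodes a small type I keratin of luminal and ductal cells. It had log2 ratios of -1.57, -0.93 and -0.98 on arrays 1, 2 and 3. All 3 arrays lay on the late carcinoma side, array 1 the farthest. The mean was -1.16 ± 0.35 (SD, n = 3; 95% interval -1.52 to -0.80), likely 2.24-fold higher in late carcinomas (limma adjusted p = 0.0117). Its mean ranked 28 from the lowest among 15055 named genes, and that of Krt1, described below with the epidermal keratins, ranked 18.

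Krt8, the type II partner that Krt18 and Krt19 share, had -0.34, -0.16 and -0.26. These values also lay below 0 on all arrays, but closer to 0 than any value of Krt19. The mean was -0.26 ± 0.088, and limma gave an adjusted p of 0.114. Its 2 probes differed, with means of -0.066 and -0.44, and the second passed when each probe was tested alone (limma adjusted p = 0.0402).

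Krt18, which fills filaments together with Krt8, had -0.80, 0.005 and 0.057. Only array 1 was clearly below 0, and the mean of -0.24 ± 0.48 did not pass (limma adjusted p = 0.353). Krt7, a type II keratin of ducts and glands, was alike, with -0.765, 0.057 and 0.26 (mean -0.15 ± 0.54, limma adjusted p = 0.604). In both genes array 1 set the sign of the mean: without it Krt18 averaged 0.031 and Krt7 0.16. Krt20, known from gut epithelium, had -0.12, 0.23 and 0.14, on both sides of 0. With receptor centring Krt8 (-0.61, limma adjusted p = 0.00585) and Krt18 (-0.59, limma adjusted p = 0.0302) also passed below 0, as did 54.3% of all genes and probes. Krt7 and Krt20 did not pass there (limma adjusted p = 0.0667 and 0.106).

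Set against its relatives on the same array, Krt19 lay lower each time. The log2 ratio of Krt19 minus that of Krt8 was -1.23, -0.77 and -0.72 on the 3 arrays. Minus that of Krt18 it was -0.77, -0.94 and -1.04, and minus that of Krt7 it was -0.80, -0.99 and -1.24. The difference from Krt18 averaged -0.92 ± 0.14 and was steadier between arrays than the difference from Krt8, at -0.91 ± 0.28. No test was made of these differences, since the genes were set side by side after their values were known.

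As deposited and with all 3 arrays, the basal keratins did not pass in either direction. With the running median Krt14 passed above 0 (0.48, limma adjusted p = 0.0338). Krt5, the type II keratin of basal and myoepithelial cells, had -0.42, 0.12 and -0.53 (mean -0.28 ± 0.35, limma adjusted p = 0.214). Its partner Krt14 had 0.10, 0.057 and 0.44 (mean 0.20 ± 0.21, limma adjusted p = 0.259). Krt14 lay above 0 on every array and Krt5 below 0 on all but array 2. Without array 2, Krt5 averaged -0.47 and passed below 0 (limma adjusted p = 0.0476).

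Krt17, found in myoepithelial cells and in injured skin, had -0.52, -0.052 and -0.20, all below 0 (mean -0.26 ± 0.24). Krt15, known from basal cells and the hair bulge, had -0.26, -0.16 and 0.047. The 95% intervals were -0.63 to 0.081 for Krt5, -0.088 to 0.48 for Krt14, -0.55 to 0.044 for Krt17 and -0.39 to 0.14 for Krt15. Each interval includes 0, and none of them shows that the stages were alike. With receptor centring Krt14 turned below 0 (-0.15) and the other basal keratins passed below 0, as did 54.3% of all genes and probes.

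The epidermal keratins held both the lowest and the highest keratin mean. Krt1, the type II keratin of the upper epidermis, had -1.62, -0.99 and -1.12. Every array lay on the late carcinoma side and none overlapped the values of any other epidermal keratin. The mean was -1.25 ± 0.33 (95% interval -1.59 to -0.90), likely 2.37-fold higher in late carcinomas (limma adjusted p = 0.0117).

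Krt2, a type II keratin of the outermost living layers of skin, had -0.52, -0.58 and -0.65. The arrays were close together, and the mean of -0.58 ± 0.066 (95% interval -0.83 to -0.34) is likely 1.50-fold higher in late carcinomas (limma adjusted p = 0.0132). Krt1 and Krt2 are neighbours among the measured keratins of chromosome 15.

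Krt10, the type I partner of both, lay on the other side, with 0.625, 0.21 and 0.63. The mean was 0.49 ± 0.24 (95% interval 0.19 to 0.79), likely 1.40-fold higher in adenomas (limma adjusted p = 0.0336). This call rested on 1 of its 2 probes. The second probe had 1.55, 0.35 and 1.24, whereas the first had -0.30, 0.073 and 0.031, with a mean of -0.067. Krt10 did not pass in limma with receptor centring (0.14, adjusted p = 0.325), without array 1 (0.42, adjusted p = 0.0663) or without array 3 (0.42, adjusted p = 0.215). Because 1 member of a pair lay on each side, Krt1 minus Krt10 was -2.25, -1.20 and -1.755 on the 3 arrays, and Krt2 minus Krt10 was -1.15, -0.79 and -1.28.

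The promoters of Krt2 and Krt10 are shown because these partner genes passed on opposite sides of 0. Both are from RefSeq on build GRCm38.p6 and read 5′ to 3′ on the minus strand, from 250 bases before the start of the gene to 50 after it, Krt2 at chr15:101818120-101818419 and Krt10 at chr11:99389315-99389614. Capitals mark TATAA, the core of the TATA box.
Krt2: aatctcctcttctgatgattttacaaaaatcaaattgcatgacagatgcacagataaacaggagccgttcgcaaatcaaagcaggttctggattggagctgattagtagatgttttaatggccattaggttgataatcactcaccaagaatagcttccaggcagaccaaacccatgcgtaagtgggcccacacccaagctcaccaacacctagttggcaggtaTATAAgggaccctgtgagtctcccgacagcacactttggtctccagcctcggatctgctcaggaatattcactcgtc
Krt10: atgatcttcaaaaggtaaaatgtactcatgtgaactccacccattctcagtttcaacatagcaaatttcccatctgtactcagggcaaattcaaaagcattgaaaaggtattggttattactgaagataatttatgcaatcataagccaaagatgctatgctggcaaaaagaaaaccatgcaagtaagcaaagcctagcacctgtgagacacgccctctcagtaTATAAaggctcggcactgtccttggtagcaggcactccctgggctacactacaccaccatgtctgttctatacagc
TATAA begins 27 bases before the start in Krt2 and 26 bases before it in Krt10. A promoter was found for 27 of 39 keratins, 28 windows in all. TATAA on either strand was in 64.3% of these windows, against 24.9% of all 32851 promoter windows, and GGGCGG on either strand was in 7.14%, against 35.7%. No match of the 2 motifs overlapped in a keratin window. Krt2 and Krt10 have TATAA at nearly the same place although their ratios differ in sign, and a match of letters is a description, not a binding site.

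As deposited and with the 3 arrays weighted alike, the other epidermal keratins did not pass. With receptor centring Krt6a, Krt6b, Krt9, Krt78 and Krt79 passed below 0, as did 54.3% of all genes and probes. Krt16 did not pass there (limma adjusted p = 0.0555). Krt6a, Krt6b and Krt16 are known for their induction in wounded and fast-growing skin. Krt6a had 0.073, -0.027 and -0.058, close to 0 on every array. Krt6b had -0.070, -0.29 and -0.62, all below 0 (mean -0.33 ± 0.28, limma adjusted p = 0.116). It passed below 0 without array 1 (-0.46, limma adjusted p = 0.0447) and with array weights (-0.47, limma adjusted p = 0.0197). Krt16, their partner, had 0.40, -0.16 and -0.41, with array 1 on the other side from arrays 2 and 3. Krt6a and Krt6b are close copies, and cross-hybridisation between them was not tested, since probe sequences were not used here. Krt79, Krt78 and Krt9 had means of -0.30, -0.27 and -0.18.

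**Figure D2:**
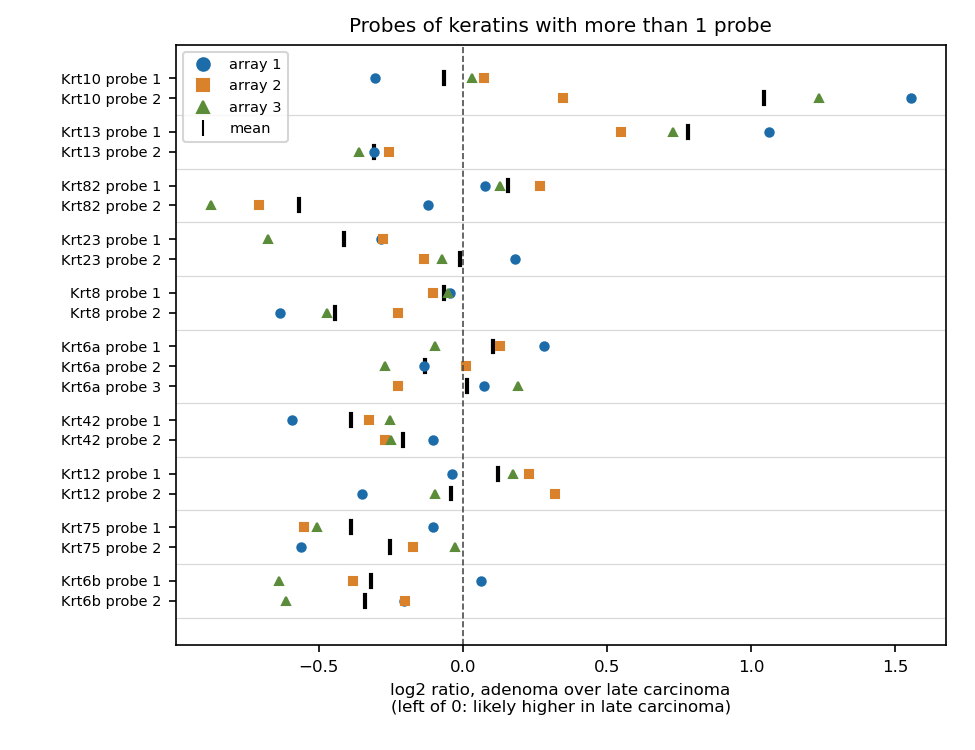
Log2 ratio of adenoma over late carcinoma (x axis) for each probe (rows) of the 10 keratins with more than 1 probe, with 1 point per array and a tick at the mean, sorted by the gap between probes. The 2 probes of Krt10, of Krt13, of Krt82 and of Krt12 lie on opposite sides of 0 by their means. The probes of Krt6a also lie on both sides, while those of Krt6b have nearly the same mean.

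For 10 keratins more than 1 probe was present, and their probes did not always agree in sign. The gap between probe means was 1.11 for Krt10, 1.09 for Krt13, 0.73 for Krt82 and 0.021 for Krt6b. Krt13, a keratin of the lining of mouth and gullet, had probe means of 0.78 and -0.31. The first probe of Krt13 passed above 0 (limma adjusted p = 0.0107) and its second did not pass (0.0778). Averaged, Krt13 had 0.38, 0.15 and 0.19, all above 0, and did not pass (mean 0.24 ± 0.12, limma adjusted p = 0.148). Krt82 had probe means of 0.16 and -0.57, and its second probe passed below 0 when tested alone (limma adjusted p = 0.0422). Krt19, Krt1, Krt2 and Krt90 each rest on 1 probe, as do 29 keratins in all.

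Of the other keratins of lining epithelia, Krt4, the partner of Krt13, had a mean of -0.26 ± 0.28 and Krt12, the keratin of the cornea, 0.040 ± 0.23. Neither passed. Krt4 minus Krt13 was below 0 on every array, at -0.87, -0.485 and -0.14.

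As deposited, with the arrays weighted alike and all genes and probes tested, none of the 13 hair keratins passed. Over all genes and probes, 25.1% passed. A mean below 0 was seen for 12 of the 13, against 53.4% of named genes. Among the 7 hair shaft keratins, means ran from -0.22 for Krt34 to 0.31 for Krt84. Krt84 had 0.32, 0.37 and 0.23, above 0 on all arrays, and came near the threshold (limma adjusted p = 0.0689). It passed above 0 with array weights, but turned to -0.043 with receptor centring. Krt34 had -0.16, -0.22 and -0.27, and Krt33a had -0.15, -0.17 and -0.32. The medians of the class were -0.022, -0.17 and -0.22 on the 3 arrays.

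The 6 root sheath keratins all had means below 0, from -0.33 for Krt72 to -0.022 for Krt73. Krt72 had -0.355, -0.21 and -0.435, and Krt75, of the companion layer beside the sheath, had -0.33, -0.36 and -0.27. Both came near the threshold, with a limma adjusted p of 0.0601 for Krt72 and 0.0595 for Krt75. They passed below 0 with array weights and with named genes alone. With receptor centring all 6 root sheath keratins passed below 0, as did 54.3% of all genes and probes. Krt27, Krt25, Krt71 and Krt73 each had 1 array above 0. This was array 3 for Krt27, array 2 for Krt25 and array 1 for Krt71 and Krt73.

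Among keratins placed in no class above, Krt90 had -0.27, -0.55 and -0.64, all on the late carcinoma side. Its mean was -0.49 ± 0.19 (95% interval -0.77 to -0.21), likely 1.40-fold higher in late carcinomas (limma adjusted p = 0.0276). It did not pass in limma without array 2 (-0.46, adjusted p = 0.0677) or without array 3 (-0.41, adjusted p = 0.196). Krt42 had -0.35, -0.30 and -0.25, all below 0, and did not pass (limma adjusted p = 0.0720), though it did with array weights and with receptor centring. Krt23, Krt88 and Krt222 had means of -0.21, -0.11 and 0.21.

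**Figure D3:**
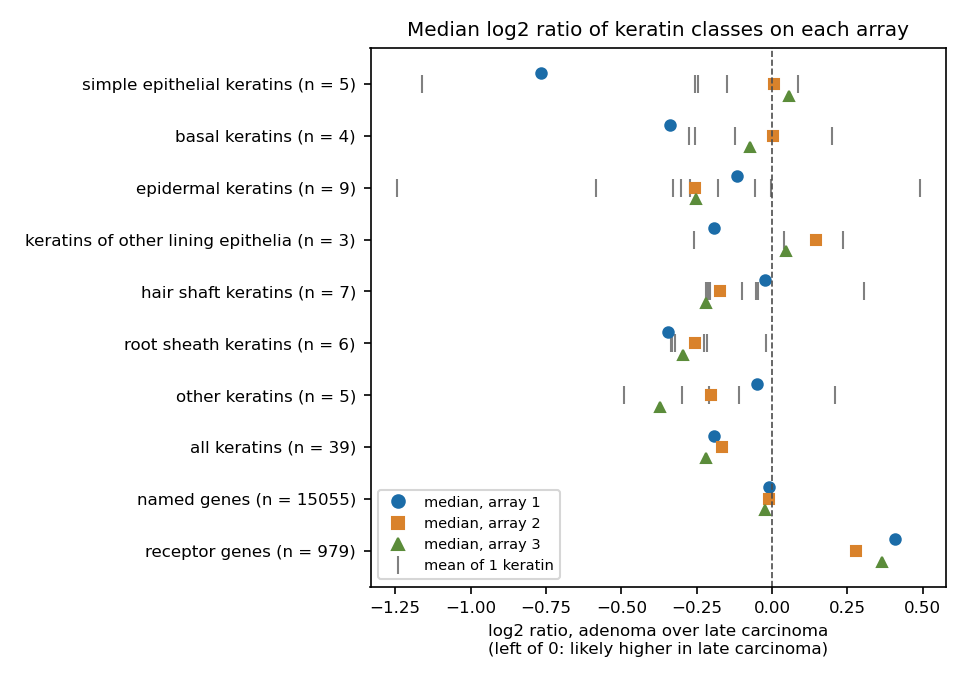
Median log2 ratio of adenoma over late carcinoma (x axis) of each keratin class on each array (coloured symbols), with grey ticks for the mean of each member, beside all keratins, named genes and the receptor genes. The simple epithelial median on array 1 (-0.765) lies far from those on arrays 2 and 3 (0.005 and 0.057), while the root sheath medians lie together.

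Compared by their class medians, root sheath keratins were the most even across arrays and simple epithelial keratins the least. Class medians on arrays 1, 2 and 3 were -0.34, -0.26 and -0.30 for root sheath keratins and -0.12, -0.26 and -0.25 for epidermal keratins. For basal keratins they were -0.34, 0.0025 and -0.075. For simple epithelial keratins they were -0.765, 0.005 and 0.057. The simple and basal classes thus lay below 0 by more than 0.3 on array 1 only, and without array 1 the median of the simple class was 0.031. The part of array 1 in these class medians was not tested further.

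Members past the threshold were 1 of 5 simple, 0 of 4 basal, 3 of 9 epidermal, 0 of 3 of other lining epithelia, 0 of 7 hair shaft, 0 of 6 root sheath and 1 of 5 other keratins. Over all genes and probes, 25.1% passed in 1 direction or the other. The classes are small, and a difference between them was not tested.

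By filament type, 17 of 18 type II keratins and 15 of 21 type I keratins had a mean below 0, against 53.4% of named genes. The medians were -0.27 for type II and -0.12 for type I. Below 0, 3 type II keratins (16.7%) and 1 type I keratin (4.76%) passed, against 9.21% of all genes and probes. A difference between the types was not tested. Some partner genes had means on the same side of 0 and others did not. Krt8 and Krt18 both lay below 0 and Krt8 minus Krt18 averaged -0.011 ± 0.41, whereas Krt5 lay below and Krt14 above 0 and Krt5 minus Krt14 averaged -0.47 ± 0.52, both within the spread of the arrays.

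**Figure D4:**
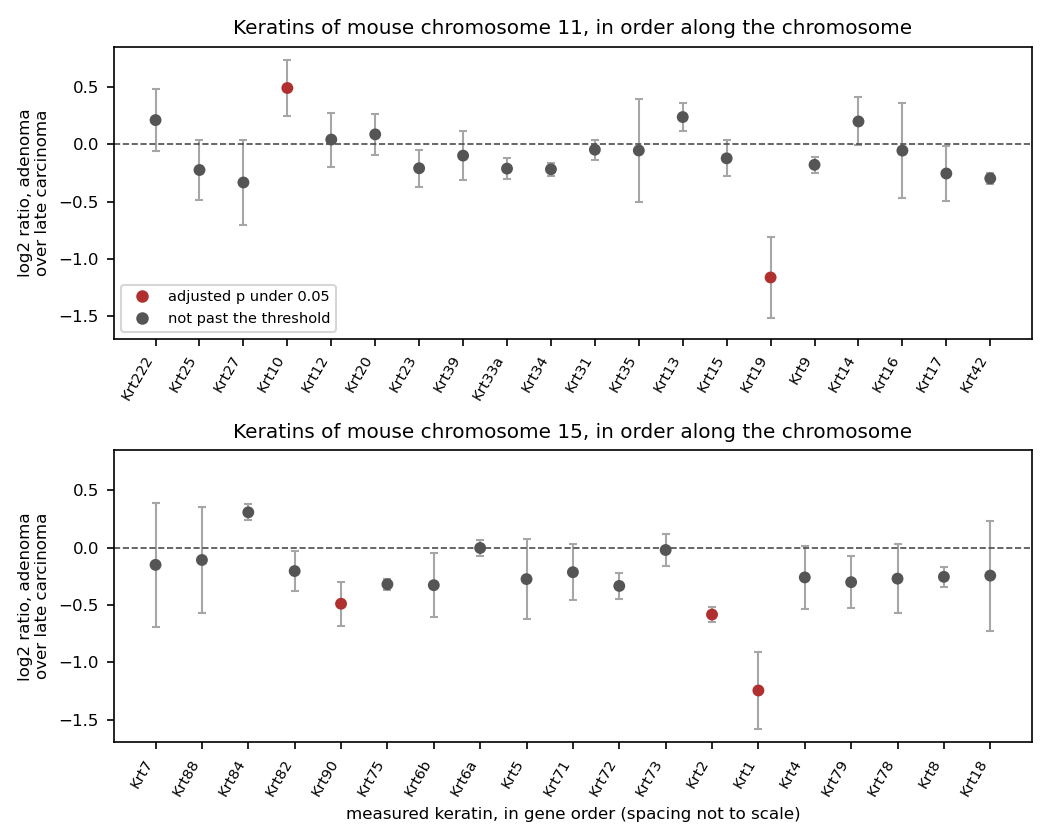
Mean log2 ratio of adenoma over late carcinoma (y axis; bars are SD, n = 3) of the keratins in their order along chromosomes 11 and 15 (x axis, spacing not to scale). Of the points past the threshold only Krt2 and Krt1 are adjacent, and Krt10 (0.49) stands beside Krt27 (-0.33), on the other side of 0.

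Among the keratins that passed, Krt2 and Krt1 were the only neighbours. Krt19 lies on chromosome 11 between Krt15 and Krt9 among the measured keratins, with means of -0.12 and -0.18 for these neighbours. Krt10 lies between Krt27 (-0.33) and Krt12 (0.040). On chromosome 15, Krt90 lies between Krt82 (-0.21) and Krt75 (-0.32), both also below 0, while Krt4 (-0.26) follows Krt1 and Krt73 (-0.022) precedes Krt2.

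Genes that work with keratins gave the counts below, to be read against 9.21% below and 15.9% above 0 over all genes and probes. With receptor centring the counts below and above 0 became 6 and 0 for desmosome genes, 7 and 1 for linkers and 9 and 0 for regulators. On that scale 54.3% of all genes and probes passed below 0 and 7.33% above 0. The receptor-centred counts of every list that follows are to be read against these shares. Desmosomes are the junctions to which keratin filaments attach, and 0 of 12 measured desmosome genes passed below 0 and 3 above 0. The desmosomal cadherin genes Dsc2 (0.61 ± 0.27), Dsg2 (0.46 ± 0.19) and Dsc1 (0.43 ± 0.12) were those above 0 (limma adjusted p = 0.0207, 0.0325 and 0.0305), though none of them passed with receptor centring. The median of the list was 0.050, and -0.30 with receptor centring. Dsc1 and Dsg2 did not pass without array 1 (limma adjusted p = 0.0629 and 0.0707) or with the running median (0.18 and 0.47, limma adjusted p = 0.256 and 0.0505).

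Among genes that link keratins to other structures, 2 of 10 passed below 0 and 1 above 0. Plec, the gene of the cytolinker plectin, had a mean of -0.37 ± 0.12 and Fam83h, which organises keratin in enamel-forming cells, -0.43 ± 0.099. Eppk1, the gene of epiplakin, a keratin-binding protein, had 1.08, 0.69 and 1.05 (mean 0.94 ± 0.22, limma adjusted p = 0.0117), likely 1.92-fold higher in adenomas. Plec did not pass with median centring (limma adjusted p = 0.0564), nor without array 1 (0.105) or without array 2 (0.0709).

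Of 17 regulators of keratin genes, 1 passed below 0 and 1 above 0. Tfap2c, an AP-2 factor of epithelial cells, had -0.93, -0.45 and -0.79 (limma adjusted p = 0.0134), and Gata3, a luminal factor, had 0.65, 0.64 and 0.47 (limma adjusted p = 0.0140), a call lost with receptor centring (0.104). Of 16 other intermediate filament genes, 4 passed below 0 and 1 above 0, but 1 and 0 with the running median and 10 and 0 with receptor centring. Des, the filament of muscle, had -0.57 ± 0.32, Vim, the filament of mesenchymal cells, -0.51 ± 0.31, and the neurofilament gene Nefh -0.47 ± 0.14. Without array 1, Des and Vim did not pass (limma adjusted p = 0.0613 and 0.0875), and with the running median Vim and Nefh did not (0.0761 and 0.0551). Sync, the syncoilin gene of muscle, was above 0 at 0.47 ± 0.084, and did not pass with receptor centring (limma adjusted p = 0.358) or with the running median (0.0756).

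**Figure D5:**
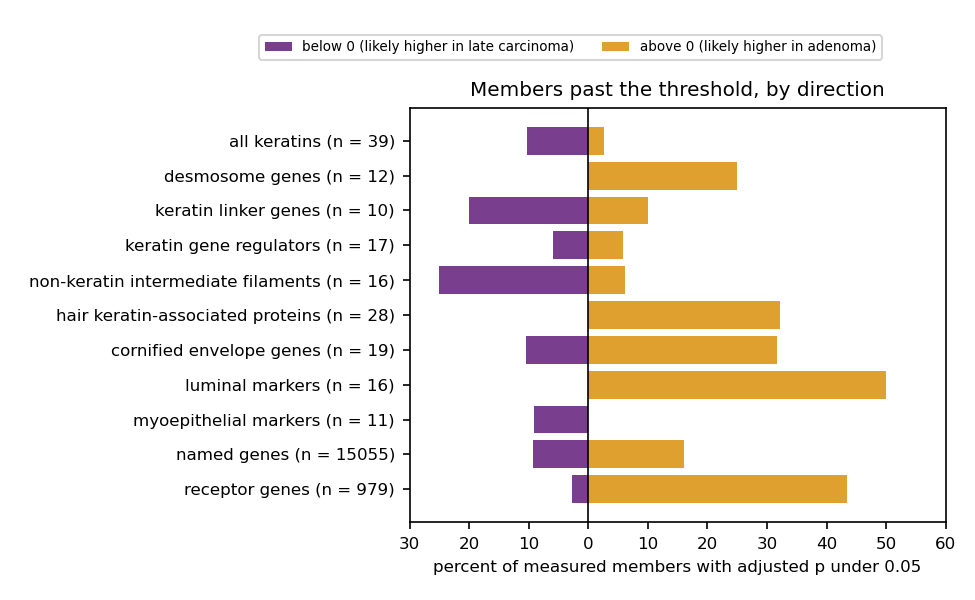
Percent of measured members with a limma adjusted p under 0.05 (x axis), to the left where the mean log2 ratio was below 0 and to the right where it was above 0, for keratins, related lists, named genes and receptor genes (rows, with the number measured). Keratins have a bar of 10.3% on the left and 2.56% on the right, while the hair keratin-associated genes have 32.1% on the right alone.

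The ratios of the epidermal keratins stood beside those of the cornified envelope, the protein shell of the upper epidermis, for which the counts leaned the other way. Of 19 measured envelope genes, 2 passed below 0 and 6 above 0, or 8 and 4 with receptor centring. The transglutaminase genes Tgm3 (-0.46 ± 0.24) and Tgm1 (-0.42 ± 0.14), whose enzymes crosslink the shell, passed below 0, though Tgm3 did not without array 1 (limma adjusted p = 0.0904) and Tgm1 did not without array 2 (0.0778). Casp14 (0.87 ± 0.27), Lce1c (0.79 ± 0.26), Lce1a1 (0.73 ± 0.32) and Lce1b (0.625 ± 0.22) passed above 0, though Lce1b did not with receptor centring (limma adjusted p = 0.0819). Lor, which encodes the main shell protein loricrin, had 1.43, 0.48 and 0.77, against -1.62, -0.99 and -1.12 for Krt1 on the same arrays. Ivl, another envelope gene, lay on the side of Krt1, with -0.235, -0.945 and -0.36, and did not pass (limma adjusted p = 0.0545). Of the 19 envelope genes, 8 had a mean below 0 and 11 above 0. The list medians were 0.030, 0.14 and 0.006 on the 3 arrays, close to 0 on arrays 1 and 3, and the part of skin in these lesions was not tested.

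Hair keratin-associated protein genes, whose products embed the hair shaft keratins, gave other counts. Of 28, 0 passed below 0 and 9 (32.1%) above 0, against 0 and 0 of 7 hair shaft keratins. Above 0, 15.9% of all genes and probes and 43.5% of the 979 receptor genes passed. With receptor centring the counts became 10 and 6 for the Krtap genes and 5 and 0 for the hair shaft keratins. A difference between these families was not tested. Krtap3-2 had a mean of 1.01 ± 0.16 and Krtap4-7 1.07 ± 0.48. With receptor centring, the median of the Krtap genes changed sign to -0.18, from 0.17 as deposited.

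Luminal markers other than keratins gave counts above 0 as deposited, whereas the luminal keratins gave 1 below 0. Of 16 luminal markers, 0 passed below 0 and 8 above 0, or 3 and 6 with receptor centring. Among those above 0 as deposited were the milk protein genes Wap (2.44 ± 0.41) and Csn2 (1.48 ± 0.46). Another was Cd24a, a surface protein gene of luminal cells (1.31 ± 0.21). Of the 16 markers, 11 lay above 0 on all 3 arrays. Cldn7 (-0.29 ± 0.20), Cldn4 (-0.195 ± 0.10) and Pgr (-0.095 ± 0.051) lay below 0 on all 3 and did not pass as deposited. The list had medians of 0.36, 0.30 and 0.35 on the 3 arrays. Of 11 myoepithelial markers, 1 passed below 0 and 0 above 0, with list medians of -0.12, -0.17 and -0.20. That gene was Vim, whose call was lost without array 1, and with receptor centring 10 of 11 passed below 0. For other cell types, the counts past the threshold below and above 0 were 0 and 5 of 9 adipocyte, 0 and 2 of 7 skeletal muscle, 0 and 2 of 9 endothelial, 1 and 1 of 9 fibroblast and 1 and 2 of 8 leukocyte markers. With receptor centring these became 2 and 2 for adipocyte, 4 and 0 for skeletal muscle, 2 and 1 for endothelial, 6 and 0 for fibroblast and 4 and 1 for leukocyte markers. Over all genes and probes, 9.21% passed below 0 and 15.9% above 0 as deposited, and 54.3% and 7.33% with receptor centring. The part of any of these cell types in the keratin ratios was not tested.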

How the data were processed

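The deposited value table holds 1 log2 ratio per probe for each of 3 arrays of 2 channels, late carcinoma in Cy3 and adenoma in Cy5 per the labels. The log base, the numerator, the scanner, the background correction and the normalization by the authors are not named in the sources at hand. Array medians were -0.012, -0.025 and -0.033, and 1 value of 38976 rows on 3 arrays was missing. The number of arrays limits the precision.

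Rows were named through the platform annotation: 22973 carried 1 gene symbol and 16003 carried none. Every named row matched the GRCm38.p6 gene table by gene identifier, which was used for names, chromosomes and gene order. Probes of a gene were averaged per array, unnamed rows stayed as probes, and the 31058 units measured on 3 arrays were fitted in R 4.3.3 by limma 3.58.1: an intercept per unit from lmFit, eBayes, a two-sided test against 0, and Benjamini-Hochberg adjusted p under 0.05. The fit was tested on simulated data. Keratins were put in 7 classes and 2 filament types from textbook knowledge. Classes and lists are described by counts and medians, with no set test. Named genes were keratins past the threshold, a panel of 14 keratins and the lowest and highest of each class. Each other list gave up to 4 members with the smallest p among those past the threshold. Where no member passed, it gave the 2 largest means. Other keratins given with values were named after their values were seen, as were Lor, Ivl, Tgm1, Tgm3, Cldn4, Cldn7 and Pgr. Members and lists were chosen with earlier results of these data known.

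Alternatives were median centring, scaling, receptor centring, a running median of 29 rows, the first probe or the median of probes, each row alone, units on at least 2 arrays, named genes alone, a robust variance, array weights, an adjusted p of 0.1 and leaving out each array. Python 3.11.15 and matplotlib 3.10.9 drew the figures.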

Additional observations from a re-analysis of the deposited data

How the results depend on the processing

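Krt1, Krt19 and Krt2 passed below 0 under every alternative except leaving out array 3, where limma adjusted p was 0.114, 0.114 and 0.121. The count of keratins past the threshold was 4 below 0 and 1 above 0. It became 29 and 0 with receptor centring and 8 and 2 with array weights (highest for array 3). At an adjusted p of 0.1 it was 7 and 2. With each row alone, 6 keratin probes passed below 0 and 2 above 0. Leaving out 1 array gave 0 to 5 keratins below 0 and 0 to 1 above 0. Krt90 and Krt10 did not pass with the running median (limma adjusted p = 0.0551 and 0.0623), where Krt14 passed above 0 (0.0338). Of all genes and probes, 2861 passed below 0 and 4948 above 0. These counts became 16861 and 2277 with receptor centring and 1657 and 2617 for named genes alone, where fewer units were tested. Below 0 they became 5386 with array weights and 4927 at an adjusted p of 0.1. Leaving out 1 array gave 0 to 2840 below 0 and 1 to 4617 above 0.

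Krt6a changed to 0.019 with median centring and 0.11 with the first probe, Krt10 to -0.067 with the first probe, Krt14, Krt20, Krt84, Krt13, Krt222 and Krt12 to -0.15, -0.26, -0.043, -0.11, -0.14 and -0.31 with receptor centring, and Krt7 to 0.059 with array weights. Leaving out 1 array gave -0.40 to 0.031 for Krt18, -0.35 to 0.16 for Krt7, -0.043 to 0.023 for Krt6a and -0.285 to 0.12 for Krt16. Except where given, causes were not tested. Each array holds both stages, so the test of the ratios against 0 already pairs them within arrays. No further pairing was possible with 1 group of arrays.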
